A study of Drosophila melanogaster with 2 samples.

Results

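The 8 Hox genes of Drosophila melanogaster lie in 2 complexes on chromosome arm 3R, and peaks of the transcription factor Onecut were located on them. The Antennapedia complex holds lab, pb, Dfd, Scr and Antp, and the bithorax complex holds Ubx, abd-A and Abd-B. The 8 were taken by name out of 13945 annotated protein-coding genes on the 6 chromosome arms. A peak was given to a gene when its summit, the base of highest signal, lay between 1000 bp upstream of the gene and the gene's end. Summits between neighbouring Hox genes were counted apart, as 6 intervals.

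The study was a chromatin immunoprecipitation and sequencing (ChIP-seq) experiment with 2 biological replicates and no second condition. Whole embryos of 0 to 24 h were used, from transgenic flies that make Onecut fused to eGFP (enhanced green fluorescent protein), and the precipitation was done with an antibody to GFP. Each value is thus a sum over all cells and ages of the collection, and cells with different Hox states are not separated. The deposited peak lists in dm6 coordinates were used: a conservative list from both replicates, a list from pooled data and a list for each replicate. Each has a longer ranked form and a form limited to an irreproducible discovery rate (IDR, the expected share of peaks whose ranks do not repeat) of at most 0.01.

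The conservative list held 6755 peaks, of which 6747 lay on the 6 arms, and its ranked form held 32412. The lists of replicates 1 and 2 held 5133 and 6023 peaks, and 31012 and 38160 in ranked form. The authors' signal value per peak was the same at the Hox peaks in the conservative list and in the pooled data. Its scale differed in the replicates' lists, with medians of 148.9 in the conservative list, 81.42 in replicate 1 and 92.82 in replicate 2. Values were therefore ordered only within a list. Sequencing depth is unknown. With 1 group there was no contrast to test, so shares among the Hox summits are set beside the same shares over the whole list and carry no p-value.

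Hox genes encode homeodomain transcription factors that give body segments their identity, and their order on the chromosome follows the order of their domains along the body. Their long introns and the DNA between them hold enhancers, Polycomb response elements and, in the bithorax complex, boundary elements that keep neighbouring enhancer domains apart. Onecut has a cut domain and a homeodomain, is known in flies as a factor of the nervous system, and binds sequences with the core ATTGAT or ATCGAT.

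Windows that reach 50 bp to either side of the summit are shown for 8 Hox summits that held this core, since they include the 4 Hox peaks of highest signal and the highest core-holding peak in 7 of the genes and intervals. They are from the dm6 genome (NCBI Release 6), plus strand, 5′ to 3′, each with its place and its signal in the conservative list. Capitals mark the core on either strand.
pb to Dfd, 1804, chr3R:6766309-6766409: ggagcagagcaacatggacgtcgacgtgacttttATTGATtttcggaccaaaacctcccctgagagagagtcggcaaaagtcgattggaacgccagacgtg
Ubx to abd-A, 1243, chr3R:16798574-16798674: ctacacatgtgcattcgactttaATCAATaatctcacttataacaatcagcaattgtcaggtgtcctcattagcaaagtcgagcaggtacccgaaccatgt
abd-A intron, 842.0, chr3R:16812107-16812207: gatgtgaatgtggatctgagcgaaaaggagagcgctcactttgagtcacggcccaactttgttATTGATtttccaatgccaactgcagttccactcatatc
Ubx to abd-A, 452.9, chr3R:16783459-16783559: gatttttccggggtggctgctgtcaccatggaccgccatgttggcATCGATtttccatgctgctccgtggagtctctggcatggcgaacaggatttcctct
Abd-B intron, 387.2, chr3R:16940892-16940992: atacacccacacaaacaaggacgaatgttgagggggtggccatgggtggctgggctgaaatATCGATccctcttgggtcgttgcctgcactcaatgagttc
abd-A to Abd-B, 311.9, chr3R:16869057-16869157: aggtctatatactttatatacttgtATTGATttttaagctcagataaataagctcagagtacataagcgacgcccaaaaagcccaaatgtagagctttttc
Ubx intron, 227.8, chr3R:16706650-16706750: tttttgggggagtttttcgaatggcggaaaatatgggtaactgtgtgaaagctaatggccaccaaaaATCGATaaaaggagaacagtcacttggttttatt
Scr to Antp, 117.9, chr3R:6854809-6854909: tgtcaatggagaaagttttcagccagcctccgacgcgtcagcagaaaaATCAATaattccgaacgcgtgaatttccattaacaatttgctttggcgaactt

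A second set is shown because these 7 windows, all in the bithorax complex, shared another stretch. Capitals mark GCGCCNNCT or its reverse complement, letters that were chosen after the windows had been read.
abd-A to Abd-B, 347.1, chr3R:16869325-16869425: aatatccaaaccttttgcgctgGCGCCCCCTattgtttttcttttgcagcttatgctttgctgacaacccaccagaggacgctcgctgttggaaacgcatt
abd-A to Abd-B, 265.8, chr3R:16834800-16834900: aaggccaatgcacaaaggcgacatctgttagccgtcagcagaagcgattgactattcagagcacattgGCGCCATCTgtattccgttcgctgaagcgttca
abd-A to Abd-B, 255.7, chr3R:16919209-16919309: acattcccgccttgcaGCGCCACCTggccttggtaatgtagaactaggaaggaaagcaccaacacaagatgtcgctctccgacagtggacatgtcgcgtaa
Abd-B intron, 198.5, chr3R:16934877-16934977: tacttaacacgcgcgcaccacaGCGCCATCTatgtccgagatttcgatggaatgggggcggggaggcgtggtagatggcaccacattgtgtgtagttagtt
abd-A to Abd-B, 152.1, chr3R:16857152-16857252: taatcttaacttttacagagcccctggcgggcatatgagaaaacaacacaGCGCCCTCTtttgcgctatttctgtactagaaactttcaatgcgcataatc
Ubx to abd-A, 140.3, chr3R:16748710-16748810: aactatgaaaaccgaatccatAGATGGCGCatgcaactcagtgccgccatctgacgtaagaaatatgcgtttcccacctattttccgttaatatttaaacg
abd-A to Abd-B, 117.5, chr3R:16882680-16882780: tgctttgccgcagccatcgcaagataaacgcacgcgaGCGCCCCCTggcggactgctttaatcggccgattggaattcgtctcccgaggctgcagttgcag

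Of the 8 Hox genes, 6 held at least 1 summit of the conservative list, and together they held 19. Over all protein-coding genes the share with a summit was 31.3%, but Hox genes are long, and among the 1784 protein-coding genes within the members' range of lengths it was 66.0%. The 8 Hox genes held a mean of 2.375 and a median of 1 summit per gene, against a mean of 1.788 and a median of 1 in genes of like length. Per 10 kb, the 8 Hox windows held 0.5499 summits and genes of like length 0.6113. The members differed widely, from 0 summits at Dfd and Scr to 8 at Antp.

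The anterior genes of the Antennapedia complex held few summits. lab, which patterns the most anterior Hox domain of the head and part of the midgut, held 1 summit, in its intron 1, with a signal of 96.79. The same place had 59.53 in replicate 1 and 51.13 in replicate 2, and it passed the IDR limit in replicate 1 and not in replicate 2. pb, which specifies adult mouthparts, held 1 intronic summit 18037 bp downstream of its transcription start site (TSS), with a signal of 91.95. That peak had 39.31 in replicate 1 and 44.12 in replicate 2 and passed the limit in neither replicate's own list. Both values lay below the list's median.

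Dfd, which specifies the maxillary and mandibular segments, held no summit of the conservative list. Its highest ranked summit lay 308 bp upstream of its TSS with a signal of 87.93, and with 48.06 in replicate 1 and 35.93 in replicate 2. The IDR there was 0.02262 in the ranked list of both replicates and 0.005446 in that of the pooled data, so Dfd was counted in the pooled list only. Scr, which acts in the labial and prothoracic segments, held none in any list limited by IDR. Its highest ranked summit, 81 bp downstream of a TSS in the 5′ UTR, had a signal of 57.94 and an IDR of 0.3449, and 33.4% of the ranked list was higher. All 8 Hox genes held a summit in the ranked list of both replicates, as did 56.3% of protein-coding genes, a share not matched for gene length. For Dfd and Scr the count of 0 thus means that their ranked peaks did not pass the limit.

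Antp, which specifies thoracic identity, held 8 summits of the conservative list over its 102976 bp, and no other Hox gene held over 4. The lists of replicates 1 and 2 alone gave it 5 and 4, where Abd-B had 4 in each. In the stronger 50% of the conservative list Antp had 2 and Abd-B 3. By the conservative list 42 of all 13945 genes held more, and 26 of the 1784 of like length. The 8 lay in introns, and 6 of them lie also inside CG46458, an annotated coding gene that overlaps Antp on the same strand, so that they cannot be given to Antp alone. The highest, chr3R:6914425-6914653, had a signal of 255.1, and 111.6 in replicate 1 and 140.5 in replicate 2, and ranked 1610 of the 6755 peaks in the conservative list. The others ranged from 80.45 to 153.9, and that of 98.4 lay also in lncRNA:CR43252.

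**Figure D1:**
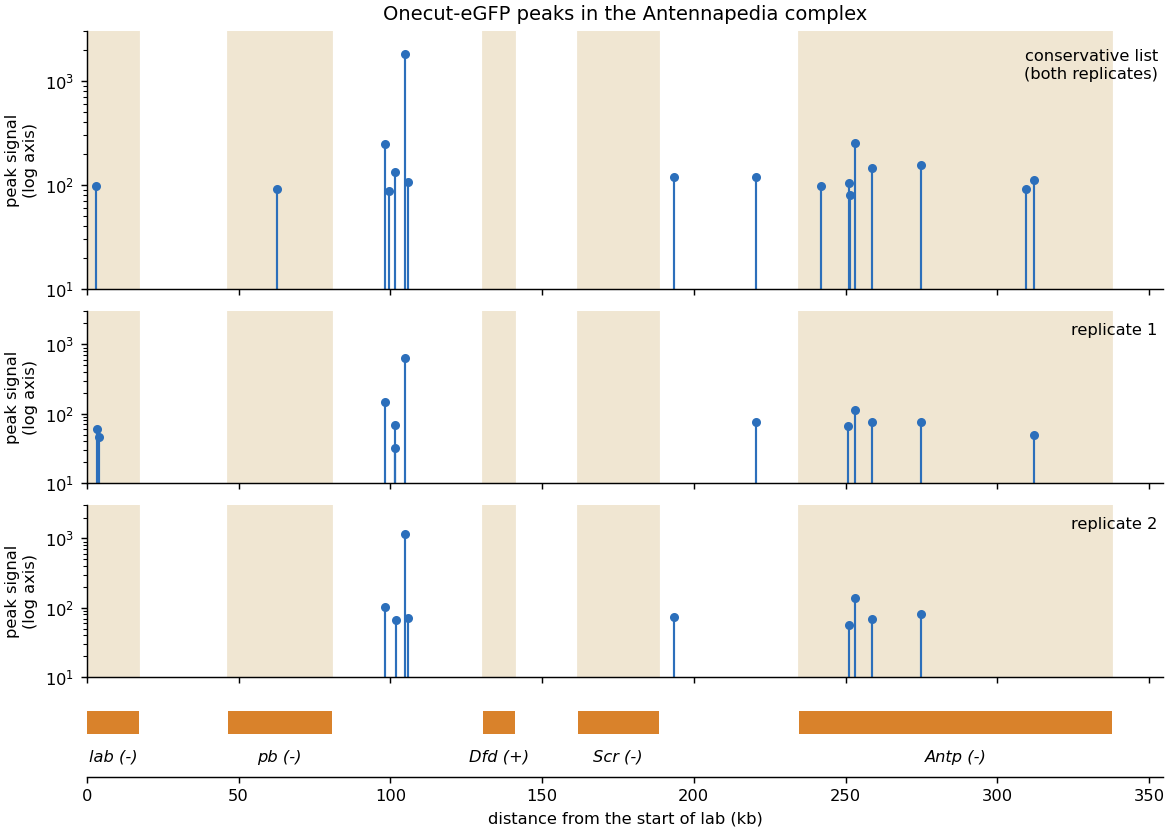
Peaks of the Antennapedia complex by distance from the start of lab in kb (x axis) and the authors' peak signal (y axis, log scale, its own scale in each list) in the conservative list and in the thresholded list of each replicate. Shaded spans and bars are the Hox genes with their strand; the peak of 1804 between pb and Dfd stands above all others in each of the 3 lists, and the Dfd and Scr spans hold none.

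In the bithorax complex all 3 genes held a summit. Ubx, which specifies posterior thoracic and anterior abdominal identity, held 4 in the conservative list, but the replicates alone gave 1 and 3, in that order. The highest was intronic, 27726 bp downstream of the TSS at chr3R:16706600-16706805, with a signal of 227.8, and 93.74 in replicate 1 and 137.8 in replicate 2. The summits of 108.2 and 79.1 were intronic too and passed the limit in replicate 2 only, and the second of these lay nearer to the TSS of the neighbouring gene modSP than to that of Ubx. A further summit lay in the Ubx 5′ UTR, 34 bp downstream of the TSS, with 86.84, and 42.28 and 47.96 in replicates 1 and 2. It was the only summit of the 19 within 500 bp of a Hox TSS, and it passed the limit in neither replicate alone.

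abd-A, which specifies the anterior and middle abdomen, held 1 summit, the highest of any Hox gene. It lay in an intron at chr3R:16811941-16812325, 15948 bp downstream of the nearest abd-A TSS. Its signal was 842.0 in the conservative list, 286.8 in replicate 1 and 559.0 in replicate 2, at ranks 213, 344 and 173. That placed it in the top 3.14% of the conservative list, at 5.654 times the list's median.

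Abd-B, which specifies the posterior abdomen and the genital segments, held 4 summits, 3 of them in introns between its several TSSs. The highest, at chr3R:16940791-16941077, had a signal of 387.2, and 140.8 in replicate 1 and 244.5 in replicate 2. The other intronic peaks had 241.0 and 198.5, with 101.1 and 102.3 in replicate 1 and 116.3 and 102.2 in replicate 2. All 3 passed the limit in each replicate, and all 3 stood above the list's median. The remaining summit, 597 bp upstream of the gene, was lower, at 104.6, and passed in replicate 2 only.

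**Figure D2:**
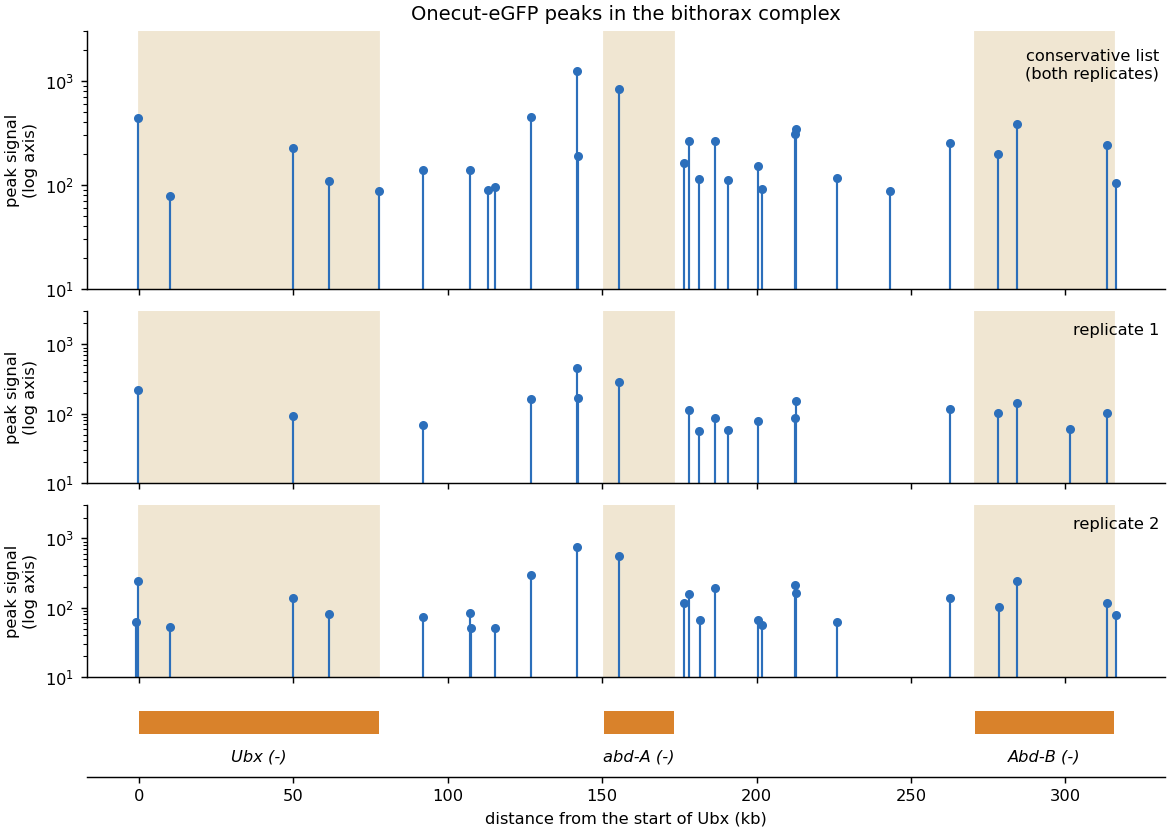
Peaks of the bithorax complex by distance from the start of Ubx in kb (x axis) and the authors' peak signal (y axis, log scale) in the conservative list and in the thresholded list of each replicate, with shaded spans for the Hox genes. The 2 highest peaks, 1243 and 842.0, stand at the abd-A end of the interval after Ubx and inside abd-A, and 12 peaks follow between abd-A and Abd-B; the leftmost peak lies just outside the Ubx window.

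The DNA between Hox genes held more summits than the genes, 26 in 6 intervals, but they were spread unevenly. The interval from abd-A to Abd-B held 12, that from Ubx to abd-A 7, that from pb to Dfd 5 and that from Scr to Antp 2. The intervals from lab to pb and from Dfd to Scr held none. The first of these is 28209 bp long and holds 8 cuticle protein genes, Edg84A and the Ccp84A group, and its ranked list held 1 summit. The second is 20691 bp long, and its ranked list held 10 summits of up to 65.35.

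The highest peak of either complex lay between pb and Dfd, at chr3R:6766114-6766615 inside lncRNA:CR44930, a long noncoding RNA gene with no role given here. Its signal was 1804 in the conservative list, 626.4 in replicate 1 and 1168 in replicate 2, at ranks 25, 50 and 20, with its summit at the same base in all 3. Its signal was 12.11 times the median of the list, and it lay 2955 bp from the nearest protein-coding TSS, that of Ama, which encodes a secreted immunoglobulin-domain protein. The other 4 summits of this interval were far lower, from 87.67 to 246.9; that of 133.1 lay where Ama and lncRNA:CR45593 overlap, and that of 107.1 in lncRNA:CR42721. The highest of the 4 lay 225 bp upstream of bcd, the maternal morphogen gene of the anterior embryo, with 149.4 in replicate 1 and 102.2 in replicate 2.

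Between Scr and Antp the 2 summits had signals below the list's median. That of 117.9 lay 4878 bp upstream of Scr, with 36.95 in replicate 1 and 74.55 in replicate 2, and passed the limit in replicate 2 only. That of 118.6 lay in lncRNA:CR44931, with 76.27 and 52.43, and passed in replicate 1 only. Its nearest protein-coding TSS was that of ftz, a pair-rule segmentation gene, at 17528 bp.

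Between Ubx and abd-A, a peak of 1243 at chr3R:16798394-16798814 lay in unannotated DNA, 8603 bp beyond Glut3, a sugar transporter gene. It had 462.5 in replicate 1 and 757.6 in replicate 2, at ranks 81, 108 and 68 in the 3 lists. An adjoining peak of 189.3 overlaps it in the conservative list. Replicate 1 gave the adjoining summit a peak of its own, at 166.7, whereas a single peak of replicate 2 spanned both. A peak of 452.9, with 162.0 and 292.5 in replicates 1 and 2, lay 12 bp from the start of lncRNA:CR44945. Of the other 4 summits, all lower at 89.27 to 140.3, each lay within lncRNA:bxd, a transcript of the Ubx regulatory region. For 3 of them the nearest protein-coding TSS was that of CG31275, a gene of unstated role inside the interval.

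The 12 summits between abd-A and Abd-B all lay within lncRNA:iab8, a transcript that spans most of that interval, and 10 of them also within MSAmiP, an annotated coding gene on the same strand. They formed a series of moderate peaks, with signals from 88.17 to 347.1. The 2 highest, 347.1 and 311.9, lay side by side at chr3R:16869248-16869498 and chr3R:16868951-16869223. The first had 150.7 in replicate 1 and 161.9 in replicate 2, and the second had 85.26 and 210.5. Their order was thus turned between the replicates. The next 3 peaks, at 265.8, 265.8 and 255.7, passed the limit in each replicate.

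By density, the 2 complexes differed. From the first to the last Hox base the bithorax complex held 0.8555 summits per 10 kb and the Antennapedia complex 0.5033, against 0.5075 over arm 3R. Summits over 500 bp from any protein-coding TSS came to 0.8238 and 0.444 per 10 kb in the 2 complexes and to 0.2768 over the arm. These densities were not matched for gene density. In the ranked list the 3 densities were 3.01, 2.102 and 2.33 per 10 kb.

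**Figure D3:**
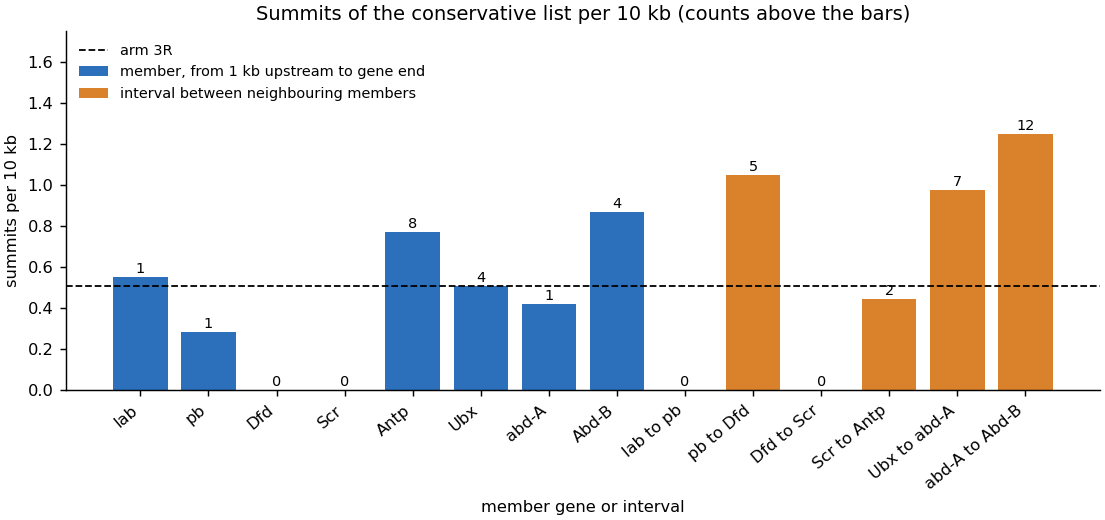
Summits of the conservative list per 10 kb (y axis) in each Hox gene with 1 kb upstream (blue) and in each interval between neighbours (orange), with counts above the bars and the density of arm 3R as a dashed line. The interval from abd-A to Abd-B is highest at 1.248, that from pb to Dfd stands at 1.047, and Dfd, Scr and the intervals from lab to pb and from Dfd to Scr are at 0.

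Hox summits lay mostly away from promoters of protein-coding genes. Starts of noncoding genes were not counted as promoters, and the summits of 452.9, 107.1 and 88.17 lay 12, 71 and 125 bp from such starts. The shares below were not matched for gene density. Within 500 bp of a protein-coding TSS lay 1 of the 19 summits in Hox genes and 2 of the 26 between them, those of bcd and Ama, whereas 44.2% of all summits of the list were promoter summits. The median signal was 108.2 in Hox genes and 139.4 between them, beside 149.0 over the list and 141.8 over its summits beyond promoters. Above the list's median stood 7 of the 19 and 12 of the 26. By complex, 4 of 17 in the Antennapedia complex and 15 of 28 in the bithorax complex did so.

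Support in each separate replicate was found for 23 of the 45 Hox peaks. A thresholded peak of each replicate overlapped 9 of the 19 peaks in Hox genes (47.4%, 95% Wilson interval 27.3% to 68.3%) and 14 of the 26 between them (53.8%, 35.5% to 71.2%), against 62.2% of all peaks. Both intervals hold the share over the list; they cover counting error only, and neighbouring peaks are not independent. Of the other 22, 4 had a peak in replicate 1 only, 10 in replicate 2 only and 8 in neither, beside 8.17%, 16.1% and 13.5% of all peaks. All 45 overlapped a peak of each replicate's ranked list. Because the conservative list comes from both replicates, this overlap is largely built in, and its share over all peaks was not counted. The lists of replicate 1 and replicate 2 taken alone held 13 and 12 summits in Hox genes and 17 and 21 between them. With 26.2% and 28.6% of all protein-coding genes holding a summit in those lists, and 32.3% in the pooled list, they gave 5, 4 and 7 of the 8 Hox genes. Those shares over all genes were not matched for gene length.

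Many Hox peaks had a standard width. A width of 436 bp, the most frequent width of the list, was found in 11 of the 19 peaks in Hox genes and in 16 of the 26 between them, and in 54.5% of all peaks. The Hox peaks of highest signal had widths of their own, such as 502 bp for the peak of 1804 and 385 bp for that in abd-A.

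**Figure D4:**
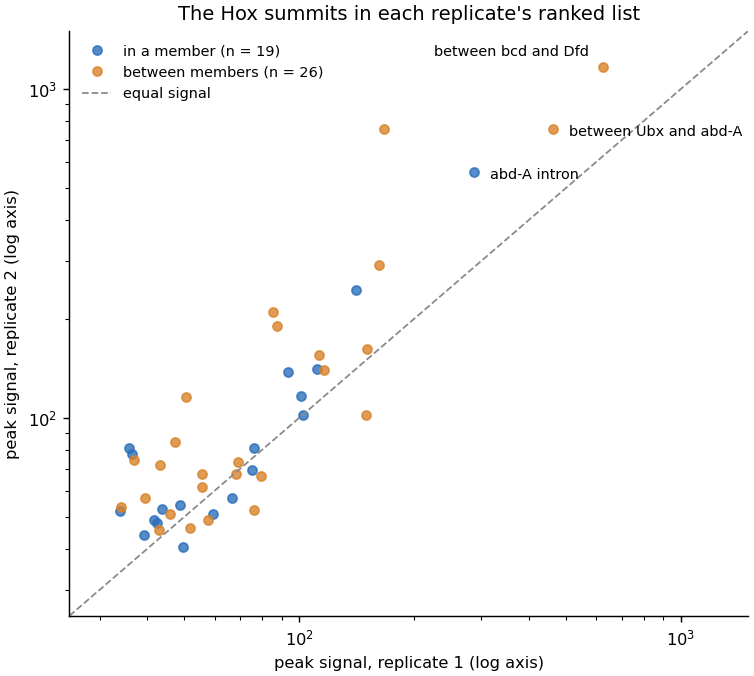
Signal in replicate 1 (x axis) and replicate 2 (y axis), both log scales, of the ranked-list peak nearest each of the 45 Hox summits; blue points lie in Hox genes and orange points between them, and the dashed line marks equal values, which the separate scales of the lists do not require. The 3 named peaks are highest in both replicates, and 1 replicate 2 peak of 757.6 is drawn for 2 neighbouring summits.

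The Onecut core, ATTGAT or ATCGAT on either strand, was found in 6 of the 19 windows in Hox genes (31.6%, 95% Wilson interval 15.4% to 54.0%) and in 9 of the 26 between them (34.6%, 19.4% to 53.8%). Over all summits of the list the share was 38.2%, and 39.5% beyond promoters, both within these intervals. By complex the core was in 3 of 17 windows (17.6%, 6.19% to 41.0%) in the Antennapedia complex and in 12 of 28 (42.9%, 26.5% to 60.9%) in the bithorax complex. These intervals overlap. Of the 15 Hox summits with the core, 11 had it centred within 20 bp of the summit. The same share over all summits of the list was not counted, so this is not shown to be particular to Hox summits.

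The printed windows of the first set were chosen for holding the core, so they do not show how often strong peaks hold it. The Hox peaks of highest signal, down to that of 387.2, held the core. It was an ATTGAT centred 13.5 bp from the summit in the peak of 1804, an ATTGAT at 24.5 bp in that of 1243, an ATTGAT at 15.5 bp in the abd-A intron and an ATCGAT at 2.5 bp in the peak of 452.9. In Abd-B an ATCGAT lay 13.5 bp from the summit of 387.2, and in Ubx an ATCGAT lay 19.5 bp from that of 227.8. The strongest Antp peak, at 255.1, held no match in its window. The peak of 347.1 between abd-A and Abd-B held none either, whereas its neighbour of 311.9 held the core. Above the list's median 9 of 19 Hox summits held the core and at or below it 6 of 26, beside 45.0% and 31.5% over the list. A match is a description of the letters and no measure of binding.

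**Figure D5:**
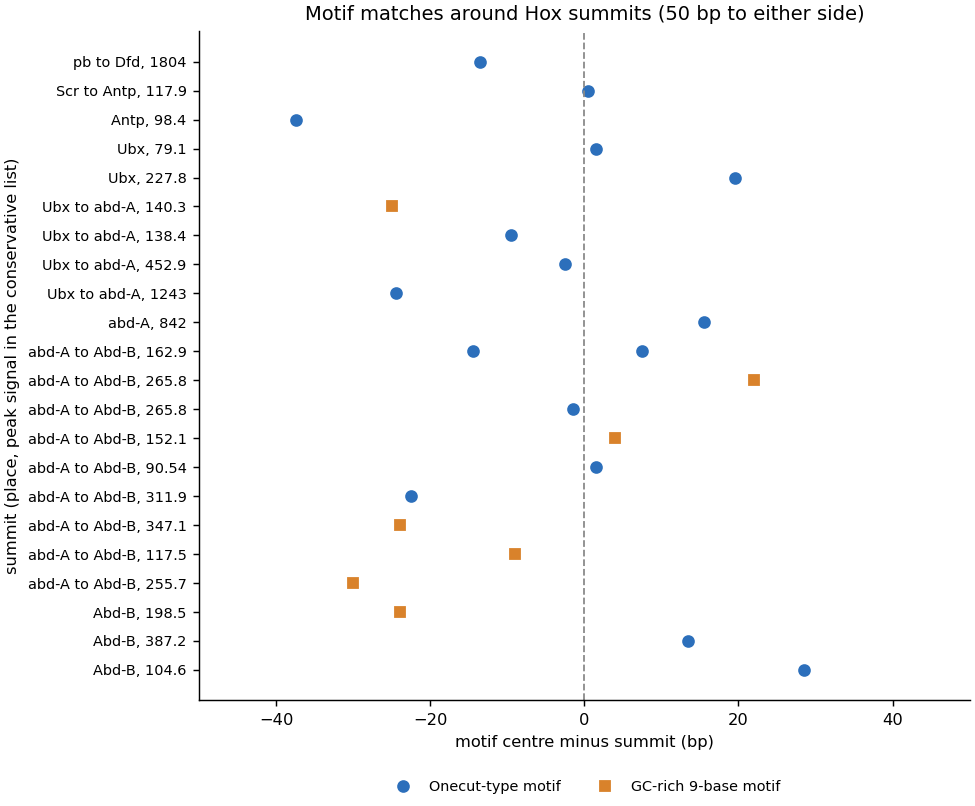
Position of each motif match relative to the summit in bp (x axis) for the 22 Hox summits with a match (y axis, by chromosome order, with the place and the signal in the conservative list); blue circles mark the Onecut core and orange squares the GC-rich 9-base motif. No summit carries both, and the squares all belong to the bithorax complex.

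Other short sequences were counted in the same windows, on both strands. GAGAG, a match to the GAGA factor that binds many Hox regulatory elements, was found in 15.8% of the windows in Hox genes and 34.6% of those between them, and by complex in 23.5% in the Antennapedia and 28.6% in the bithorax complex, beside 15.3% over the list. GCCAT, the core bound by the Polycomb-recruiting protein Pleiohomeotic, was found in 26.3% of the windows in Hox genes and 30.8% of those between them, beside 18.1% over the list. By complex it was in 1 of 17 Antennapedia windows (5.88%) and in 12 of 28 bithorax windows (42.9%). In 3 of these windows a GCCAT lies inside the GCGCCNNCT stretch of the second printed set, and 2 of the 3 hold a further match elsewhere. TAATTA, a homeodomain core, was found in 4 of the 45 windows and in 5.42% of all. TGATNNAT, the core of sites for a Hox protein with its cofactor Extradenticle, was found in 2 of the 45 and in 6.3% of all, and 1 of the 2 overlaps an Onecut core.

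GCGCCNNCT, the stretch in the second printed set, was found in 7 of the 28 bithorax windows (25%, 95% Wilson interval 12.7% to 43.4%) and in 0 of the 17 Antennapedia windows (up to 18.4%), against 2.53% of all windows and 2.81% of those beyond promoters. The letters hold the core bound by CTCF, an insulator protein known at boundary elements of the bithorax complex. Because they were chosen after these windows were read, the share describes the windows and tests nothing. Of the 7, 5 lay between abd-A and Abd-B, 1 in Abd-B and 1 between Ubx and abd-A, and 5 had a signal above the list's median. None of the 7 held the Onecut core, beside 46 of all 171 windows with GCGCCNNCT. With only 7 windows, this is not shown to be a difference.

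Genes linked to the Hox genes in development were counted in the same way, beside 31.3% over all protein-coding genes; the lists are small and were not matched for gene length. Of the 4 other homeobox genes of the Antennapedia complex, zen, zen2, bcd and ftz, only bcd held a summit, at 246.9. Of 5 cofactors and co-regulators, hth, which carries Extradenticle to the nucleus, held 14 summits of up to 255.4 in the conservative list, but 4 and 5 in the lists of replicates 1 and 2, and exd held 1 of 77.78 that was in no other thresholded list; tsh, disco and disco-r held none in the conservative list. The pooled list added 1 at tsh, of 77.88, and disco-r had 1 in each replicate's list, of 59.57 and 64.39. Of 10 genes known as direct Hox targets in the embryo, 6 held a summit. The highest were at Dll, a limb gene, with 1018, 372.9 in replicate 1 and 651.0 in replicate 2, then at fkh, a salivary gland gene, with 543.9, 217.8 and 340.2, and at dpp, a signalling gene, with 299.1, 155.8 and 150.0. Of the 4 gap genes hb, Kr, kni and gt, which set the Hox domains, Kr alone held one, at 86.03, and it was in neither replicate's thresholded list. The gene hb was added by the pooled list at 87.04 and had 1 in the list of replicate 2, at 72.01.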

How the data were processed

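Chromatin from 2 biological replicates of whole embryos was measured, 1 group. The authors deposited peak lists with a signal value per peak and, in the ranked lists, the −log10 of the IDR; per the file headers they derive from alignments of the replicates and of a control. Software names and versions, the peak-calling method and depth were not given in the sources used here, and the signal tracks were not analysed here. The lowest −log10 IDR in each thresholded list was 2.0.

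Summits were placed on Ensembl release 115 genes and dm6 sequence with Python 3.11.15, pandas 2.3.3 and numpy 2.4.6; counting was tested on simulated peaks. Promoters reach 500 bp from a protein-coding TSS, motif windows reach 50 bp to either side of the summit, and an overlap needs 1 bp. A replicate's peak is the overlapping ranked peak with the nearest summit. The 8 members, all genes between outermost members that hold a summit or whose protein-coding TSS is nearest to one, and the 3 highest genes of each linked list are named. Members, lists and motifs were chosen with earlier results of these data known. The lists' con is annotated as Con. The 8 peaks outside the arms were left out. Alternatives covered lists, replicates, IDR, signal, windows and overlap.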

Additional observations from a re-analysis of the deposited data

How the results depend on the processing

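Of 40 alternative values, 24 stayed close to the reported one, meaning within 1.5-fold of it, and 16 moved. The count of Hox genes with a summit was 4 to 7 instead of 6. With either replicate's list alone, summits in Hox genes numbered 12 to 13 instead of 19, and summits between them 17 to 21 instead of 26. In these lists the promoter summits in Hox genes numbered 0 instead of 1. The highest peak inside a Hox gene stood there in the top 2.86% to 6.68% instead of 3.14%. At an IDR of at most 0.001 the counts were 8 in Hox genes and 14 between them. Of the 8 in Hox genes, 3 held the Onecut core and 0 lay at promoters. In the stronger 50% of peaks the counts were 7 in Hox genes and 12 between them. Of the 7 in Hox genes, 3 held the core and 0 lay at promoters. Both of these limits can only lower a count. The pooled list gave 2 promoter summits in Hox genes, and a promoter of 1000 bp gave 3 in them. With the replicates' ranked lists, all 19 peaks overlapped each replicate, which is largely built in because the conservative list comes from both. The counts of moderate peaks thus depend on the limit; lab and pb lost their summit at the stricter IDR, while abd-A, Ubx, Abd-B and Antp kept at least 1. No paired analysis was possible because there was 1 group and no result came from a test. Depth is unknown, so a missing peak is not shown to be absent.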

Other observations

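A peak of 441.0, at rank 700 of the conservative list, had its summit 317 bp beyond the 3′ end of Ubx and was therefore outside the counts above. It had 219.1 in replicate 1 and 245.9 in replicate 2, held the Onecut core in its window and lay 644 bp from the TSS of modSP, a serine protease gene. Its signal was higher than that of each of the 4 summits given to Ubx.

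The microRNA genes of the complexes, which are only 68 to 119 bp long, held no summit. For mir-iab-4 and mir-iab-8, which are read from opposite strands of 1 hairpin between abd-A and Abd-B, the nearest summit lay 860 bp away, with a signal of 152.1 and the GCGCCNNCT stretch in its window. For mir-993 the nearest was 9212 bp away and for mir-10, between Dfd and Scr, 42385 bp. With the ranked list, whose added peaks did not pass the IDR limit, the nearest lay 690 bp from mir-993 and 642 bp from mir-10.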
